A study of Mus musculus with 6 samples.

Results

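The 35 genes described here encode the enzymes and regulators that turn glucose into pyruvate and lactate and pass pyruvate to the mitochondria. They were chosen by name: hexokinases and the regulator Gckr, the isozymes of each glycolytic step, the PFKFB enzymes and fructose bisphosphatases, lactate dehydrogenases, the E1 subunits of pyruvate dehydrogenase, and the kinases (PDK) that switch it off. Each of the 35 symbols was found among the 24346 gene symbols listed for every library. Of these, 31 had a mean of at least 0.5 FPKM over the 6 libraries and were tested among 14176 genes, and 4 (Fbp1, Fbp2, Pklr and Pdk4) were under that filter. FPKM counts sequenced fragments relative to transcript length and library size, so levels can be set side by side between genes.

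The study compared mRNA of the whole mouse retina between Unc119+/+ mice (3 libraries, called wild type) and Unc119-/- mice (3 libraries, called knockout). UNC119 binds lipid-modified proteins, among them transducin, and its loss is tied in the study's title to cone-rod dystrophy. The labels do not say how the allele was made, nor do they give strain, age or sex, or state that each library came from another animal. Each p-value is thus set against the spread of these libraries alone, and part of that spread may be technical. Xist RNA, made in female cells, was present in some libraries of each genotype and nearly absent from others. The libraries of a genotype thus did not all come from the same animal.

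The retina is known for aerobic glycolysis: photoreceptors take up much glucose, make lactate from it even when oxygen is present, and hand lactate on to Müller glia and the pigment epithelium. Hexokinase traps glucose in the cell, phosphofructokinase 1 sets the pace under control of fructose 2,6-bisphosphate, and pyruvate kinase gives pyruvate. Pyruvate is then reduced to lactate by lactate dehydrogenase or enters the mitochondria through pyruvate dehydrogenase.

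Unc119 itself measured 1191, 1187 and 1206 in wild-type libraries 1, 2 and 3, and 510, 460 and 449 FPKM in knockout libraries 1, 2 and 3. The knockout mean was 39.6% of the wild-type mean (log2 change −1.34, SE 0.06, limma adjusted p = 6.6e-05), and an exact two-sided permutation test gave p = 0.1, the smallest possible with 3 against 3. All 8 rod markers were listed in each library, and their sum was 24739 to 26705 FPKM in wild type and 25263 to 26561 FPKM in the knockout. Summed lens markers ranged from 0.514 to 459 FPKM in wild type and were 160, 408 and 6667 FPKM in knockout replicates 1, 2 and 3, so knockout replicate 3 stood apart, and 12 of 12 lens markers had higher means in the knockout. The 8 microglia markers summed to 29.4 to 35.5 FPKM in wild type and 52.2 to 57.2 FPKM in the knockout, with 8 of 8 higher there. Cone markers summed to 761 to 821 and 706 to 754 FPKM, and horizontal cell markers to 132 to 137 and 115 to 130 FPKM. Of these, 1 of 8 and 0 of 5 had higher means in the knockout. Müller glia markers summed to 1719 to 1835 and 1759 to 2100 FPKM, with knockout replicate 3 highest and 4 of 8 markers higher in the knockout. Pigment epithelium markers summed to 31.9 to 54.8 and 24.5 to 82.2 FPKM, with 5 of 7 higher. The Müller glia and pigment epithelium sums overlapped between genotypes. The part of these cell markers in the results on glycolytic genes was not tested. RNA of Xist, made in female cells, was present in wild-type replicate 3 and knockout replicates 2 and 3 (212 to 243 FPKM) and under 1 FPKM in the others.

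The promoters of both members called by the test are shown beside that of Ldha, the member with the most copies of the short core to which hypoxia-inducible factors bind. The sequences are RefSeq's (GRCm38.p6, the same build as mm10), from 250 bases before to 50 bases after an annotated start, on the gene's own strand. Capitals mark matches on either strand to 3 motifs: the hypoxia response element core (ACGTG or GCGTG), the core bound by the photoreceptor factor CRX (TAATCC), and the E-box bound by MYC and ChREBP (CACGTG), which contains the first core on both strands and is counted there too.
Gckr, chr5:31297313-31297612, plus strand: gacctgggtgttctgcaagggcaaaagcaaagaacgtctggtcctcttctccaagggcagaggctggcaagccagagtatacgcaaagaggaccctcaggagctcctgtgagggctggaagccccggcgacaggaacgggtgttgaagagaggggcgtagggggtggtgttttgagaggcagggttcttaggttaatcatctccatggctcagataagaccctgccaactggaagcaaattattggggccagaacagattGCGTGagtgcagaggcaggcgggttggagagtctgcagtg
Hk1, chr10:62340372-62340671, minus strand, 1 of its windows: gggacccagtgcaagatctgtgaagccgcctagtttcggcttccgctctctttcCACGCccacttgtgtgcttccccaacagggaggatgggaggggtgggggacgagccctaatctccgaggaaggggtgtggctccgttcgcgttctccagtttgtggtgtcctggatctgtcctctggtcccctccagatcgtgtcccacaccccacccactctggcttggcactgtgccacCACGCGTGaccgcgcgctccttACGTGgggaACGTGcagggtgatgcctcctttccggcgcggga
Ldha, chr7:46845554-46845853, plus strand, 1 of its windows: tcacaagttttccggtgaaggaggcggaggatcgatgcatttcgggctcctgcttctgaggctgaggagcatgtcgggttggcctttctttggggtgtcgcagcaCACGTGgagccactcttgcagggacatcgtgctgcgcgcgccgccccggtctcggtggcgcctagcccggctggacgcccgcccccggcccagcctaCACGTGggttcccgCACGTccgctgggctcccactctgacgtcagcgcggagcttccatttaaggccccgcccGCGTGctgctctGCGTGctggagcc
The Gckr window held 1 hypoxia core, the Hk1 window 5 and the Ldha window 7, counted over both strands, with 2 E-boxes in the last. None of these 3 windows held the CRX core. For Hk1 and Ldha the window with more matches is shown: the other Hk1 window held 0 matches to the 3 motifs, and the other Ldha window held 2 hypoxia cores and 1 CRX core. Over the members, 38 of 55 windows (69.1%) held the hypoxia core, against 43.8% of all 32851 windows of that length. The E-box was in 6 member windows (10.9%, against 7.15%) and the CRX core in 5 (9.09%, against 7.06%). Member windows were also richer in G and C, with a median of 57.3% against 52.7%, and the part of this in the motif counts was not tested. A match to such short letters is not a site of binding.

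The most abundant members per length were Gapdh, Aldoa and Pkm. In wild type Gapdh measured 1466 ± 14.8 FPKM, Aldoa 1419 ± 57.5 FPKM and Pkm 1103 ± 21.6 FPKM (SD, n = 3 each). The libraries of Gapdh and Aldoa overlapped (1449 to 1475 and 1352 to 1455 FPKM), while Pkm lay below both. They were followed by Ldha, Eno1, Tpi1, Pgam1, Pgk1, Eno2, Gpi1 and Hk1, in that order, with wild-type means from 575 FPKM (Ldha) to 226 FPKM (Hk1). The place of Eno1 is uncertain: summed with its near-identical copy Eno1b, described below, it had a wild-type mean of 959 FPKM. At the other end, the fructose 1,6-bisphosphatases Fbp1 and Fbp2, which run the step backwards in tissues that make glucose, were listed at 0 to 0.202 FPKM. Pklr, the liver and red cell pyruvate kinase, was at 0 to 0.163 FPKM, and Pdk4, a kinase induced by fasting in other tissues, at 0.0397 to 0.201 FPKM. These 4 genes are too low for a comparison between genotypes, and the fragments behind their values are not known.

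**Figure D1:**
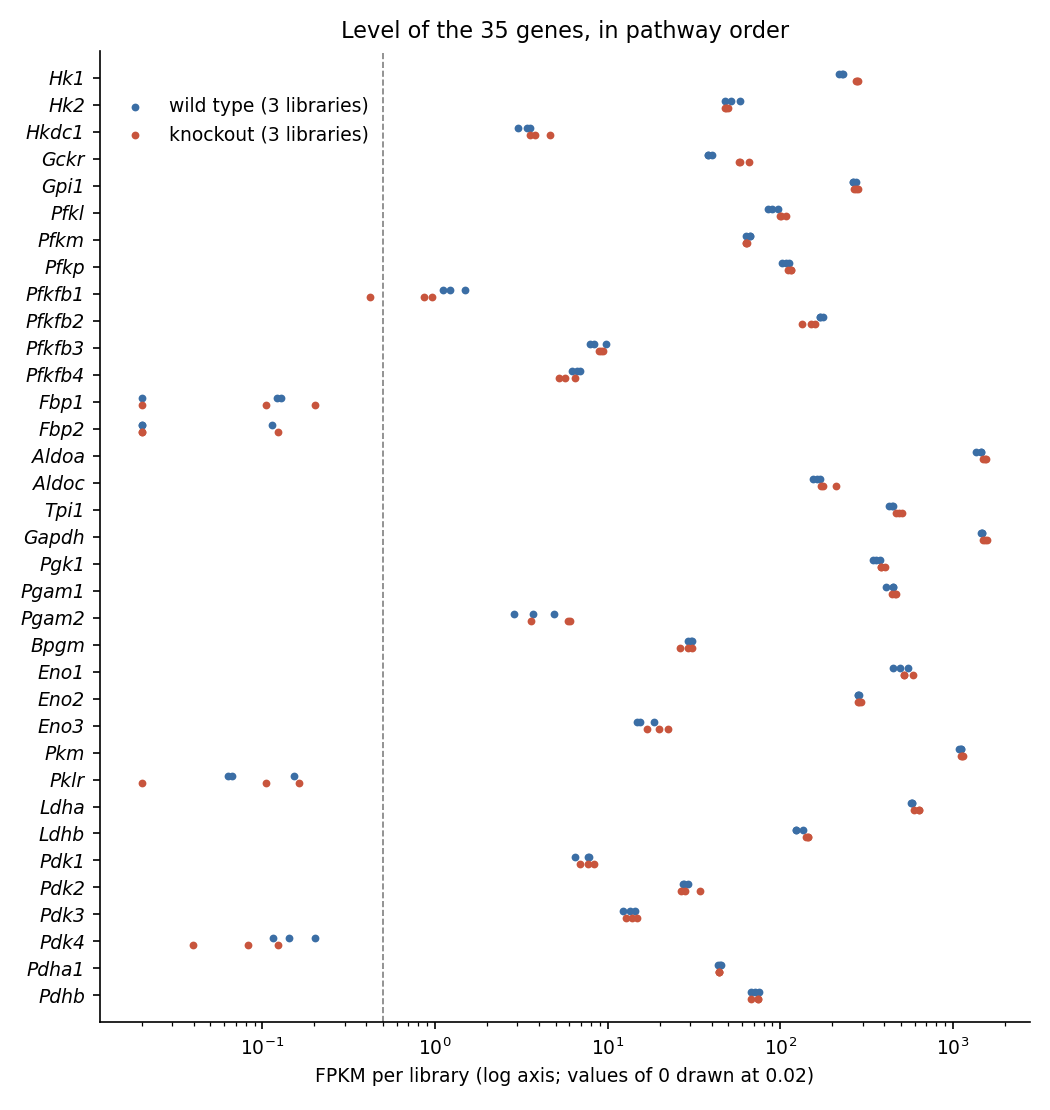
FPKM of the 35 genes (log axis) in 3 wild-type (blue) and 3 knockout (red) libraries, in pathway order, 1 point per library; the dashed line marks 0.5 FPKM, the minimum mean for testing. Gapdh, Aldoa and Pkm lie furthest right and Fbp1, Fbp2, Pklr and Pdk4 lie left of the line.

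Of the 31 members tested, 2 rose in the knockout and none fell at a limma adjusted p under 0.05 over all genes, against 0.233% of all genes called in either direction. Both act at the entry of glucose: Hk1, the main hexokinase of neural tissue, and Gckr, a regulatory protein of glucose phosphorylation, known from the liver. Over all 14176 genes, 0.205% were called higher and 0.0282% lower. At an unadjusted p under 0.05 there were 8 members, against 9% of all genes. Their knockout values were higher for 7, against 5.19% of all genes, and lower for 1, against 3.81%. The members had a median log2 change of 0.07, against −0.00174 over all genes, and 24 of 31 had values above 0, against 49.3% of all genes. Without knockout replicate 3, the library rich in lens RNA, 1 member (Gckr) was called, 23 of 31 were above 0 and the median was again 0.07. Values from whole retina do not tell fewer cells of a type from less RNA per cell, here or in the results that follow.

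**Figure D2:**
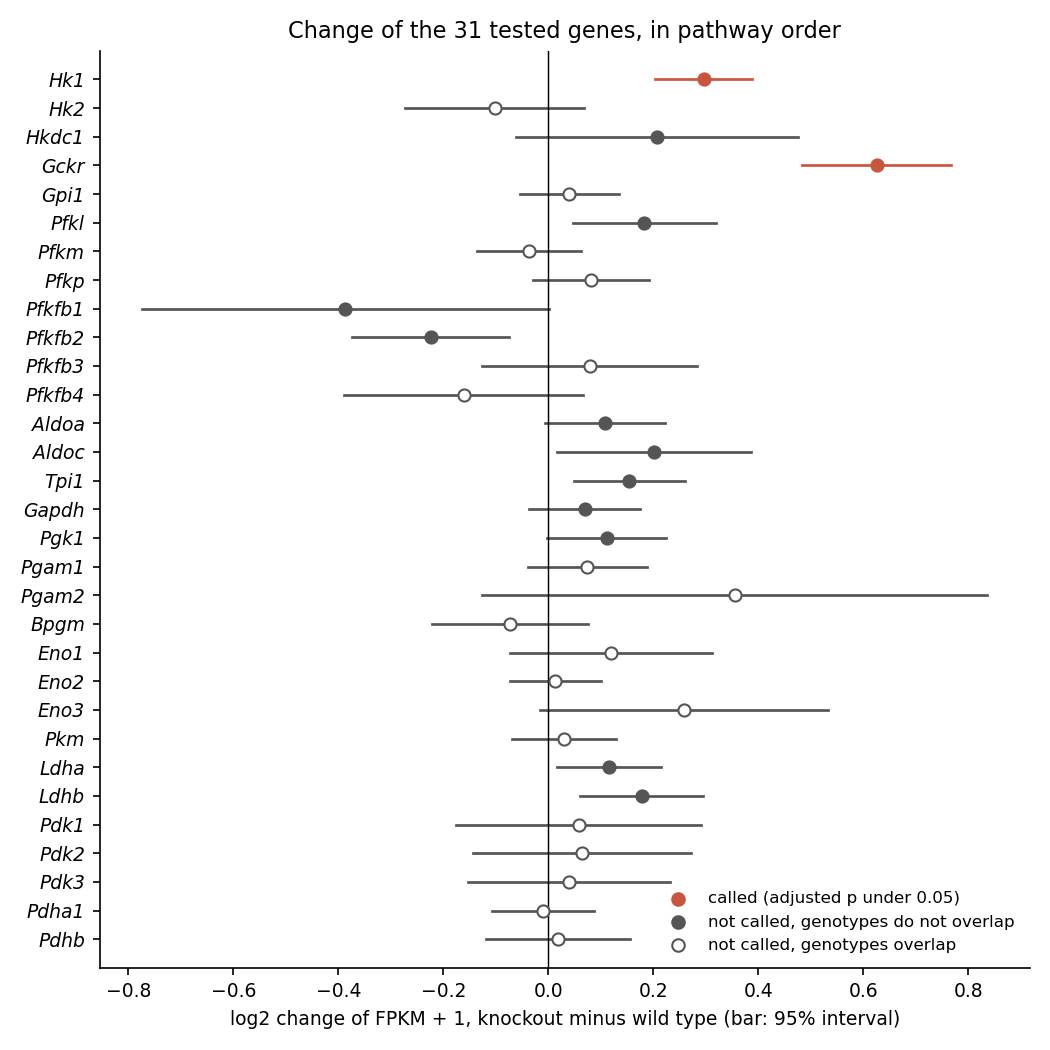
Log2 change of FPKM + 1, knockout minus wild type, for the 31 tested genes in pathway order; bars are 95% intervals from limma, filled points have genotypes that do not overlap, and red marks the 2 genes called. Gckr (0.63) lies furthest right. Pgam2 (0.36), which was not called and has a wide interval across 0, lies right of Hk1 (0.30). Pfkfb2 (−0.22) is the gene left of 0 whose interval does not reach it.

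Gckr measured 38.2, 40.2 and 38.1 in wild-type libraries 1, 2 and 3, and 58.3, 65.7 and 57.5 FPKM in knockout libraries 1, 2 and 3. Every knockout library was above every wild-type library, and the lowest knockout value came from the lens-rich replicate 3. The knockout mean was 156% of the wild-type mean, with a log2 change of 0.63 (SE 0.06, 95% interval 0.48 to 0.77, limma adjusted p = 0.0101). Gckr (ENSMUSG00000059434.9, chromosome 5, 31297443 to 31327314, plus strand) overlaps no other annotated gene in GENCODE M21. Gckr was not called when wild-type library 1 (limma adjusted p = 0.0667) or wild-type library 3 (0.0768) was left out, or with a term for the lens level of each library (0.0819), while its log2 change ran from 0.57 to 0.66 over the 13 alternatives.

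Hk1 measured 231, 227 and 219 in the wild-type and 280, 277 and 274 FPKM in the knockout libraries 1, 2 and 3. The genotypes were far apart compared with the spread inside each, and the 3 knockout libraries lay within 7 FPKM of each other. The mean was 22.8% higher in the knockout (log2 change 0.30, SE 0.04, 95% interval 0.20 to 0.39, limma adjusted p = 0.0412). This call was close to the threshold: Hk1 was called in 2 of 13 alternatives, and in none of the 6 that leave out 1 library (limma adjusted p from 0.114 to 0.201), while the log2 change ran from 0.27 to 0.31. Hk1 (ENSMUSG00000037012.18, chromosome 10, 62268855 to 62379908, minus strand) shares 23112 bases with the antisense gene Hk1os, which measured 1.42 ± 0.739 in the wild-type and 2.47 ± 0.936 FPKM in the knockout libraries (SD, n = 3 each). The sources used here do not give whether counting used strand.

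Hk2, the hexokinase typical of growing and highly glycolytic cells and found in photoreceptors, was not called. It measured 51.5, 47.5 and 58.4 in the wild-type and 47.6, 49.6 and 48.7 FPKM in the knockout libraries, with overlapping libraries (log2 change −0.10, 95% interval −0.27 to 0.07, limma adjusted p = 0.699). Hkdc1, a hexokinase-like gene that lies 3228 bases from Hk1 on the same strand, measured 3.53, 3.41 and 3.02 in the wild-type and 3.81, 3.54 and 4.64 FPKM in the knockout libraries. Its genotypes lay next to each other without overlap, and the highest value came from knockout replicate 3 (log2 change 0.21, limma adjusted p = 0.637, and 0.12 without that library). As a share of the summed FPKM of the 3 hexokinase genes, Hk1 made up 80.7%, 81.7% and 78.1% in wild type and 84.5%, 83.9% and 83.7% in the knockout. Hk2 made up 18.7% ± 1.97 and 14.8% ± 0.359 (SD, n = 3 each). The 2 sets of libraries did not overlap for either share, and no test was made of shares.

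**Figure D3:**
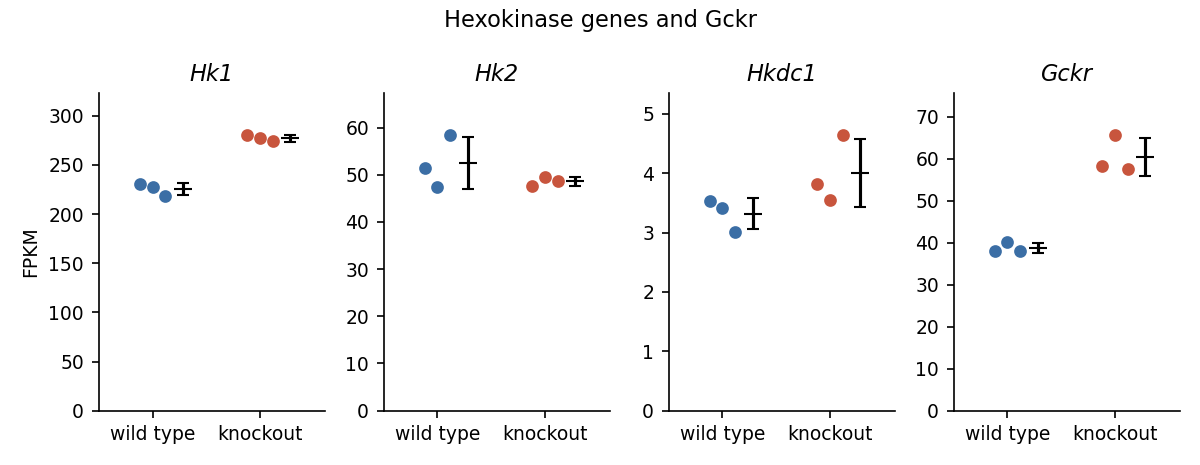
FPKM of the 3 hexokinase genes and of Gckr in each wild-type (blue) and knockout (red) library, with mean and SD (black, n = 3); axes start at 0 and differ between panels. Hk1 and Gckr separate the genotypes, Hk2 overlaps between them, and Hkdc1 is under 4 FPKM in all libraries but 1.

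For 11 of the 31 tested members every knockout library was above every wild-type library, against 7.83% of all genes, and for 2 every knockout library was below, against 8.04%. Together 13 of 31 did not overlap in either direction, against 15.9% of all genes. The 11 were Hk1, Hkdc1, Gckr, Pfkl, Aldoa, Aldoc, Tpi1, Gapdh, Pgk1, Ldha and Ldhb, and the 2 were Pfkfb1 and Pfkfb2. Most are genes of the abundant central enzymes: apart from Hk1, Gckr and Hkdc1, the means of the 11 were 4.97% (Gapdh) to 15.4% (Aldoc) higher, and none of these passed the test. After quantile normalization, which makes the distribution of values equal in all libraries, the counts were 6 and 2, against 6.28% of all genes on the higher and 9.23% on the lower side. Aldoa, Gapdh, Pgk1 and Ldha, with Hkdc1, then no longer separated the genotypes. The log2 change was then 0.00570 for Ldha, 0.0115 for Gapdh, 0.0599 for Pgk1 and 0.0872 for Tpi1, against 0.12, 0.07, 0.11 and 0.15 without that step. Without quantile normalization, 14 of 15 members with a mean of at least 100 FPKM had a log2 change above 0, against 49.3% of all 584 genes of that level. With it, Eno2 (−0.0258) and Pkm (−0.0224) were below 0 as well. The summed FPKM of the 35 genes was 8223, 7913 and 8224 in wild type and 8574, 8660 and 8674 in the knockout, which is 2.05% to 2.14% and 2.16% to 2.23% of all FPKM. Summed by enzyme step, without quantile normalization, 7 of 15 steps had knockout totals above wild type without overlap. They were glucose phosphorylation with the regulator Gckr included (21.9% higher), phosphofructokinase 1 (6.35%), aldolase (8.51%), triose phosphate isomerase (11.3%), glyceraldehyde 3-phosphate dehydrogenase (4.97%), phosphoglycerate kinase (7.99%) and lactate dehydrogenase (9.23%). Triose phosphate isomerase, glyceraldehyde 3-phosphate dehydrogenase and phosphoglycerate kinase are single genes already among the 11. No share over all genes was formed for such sums, so the count of steps has no background beside it. These sums were not tested.

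**Figure D4:**
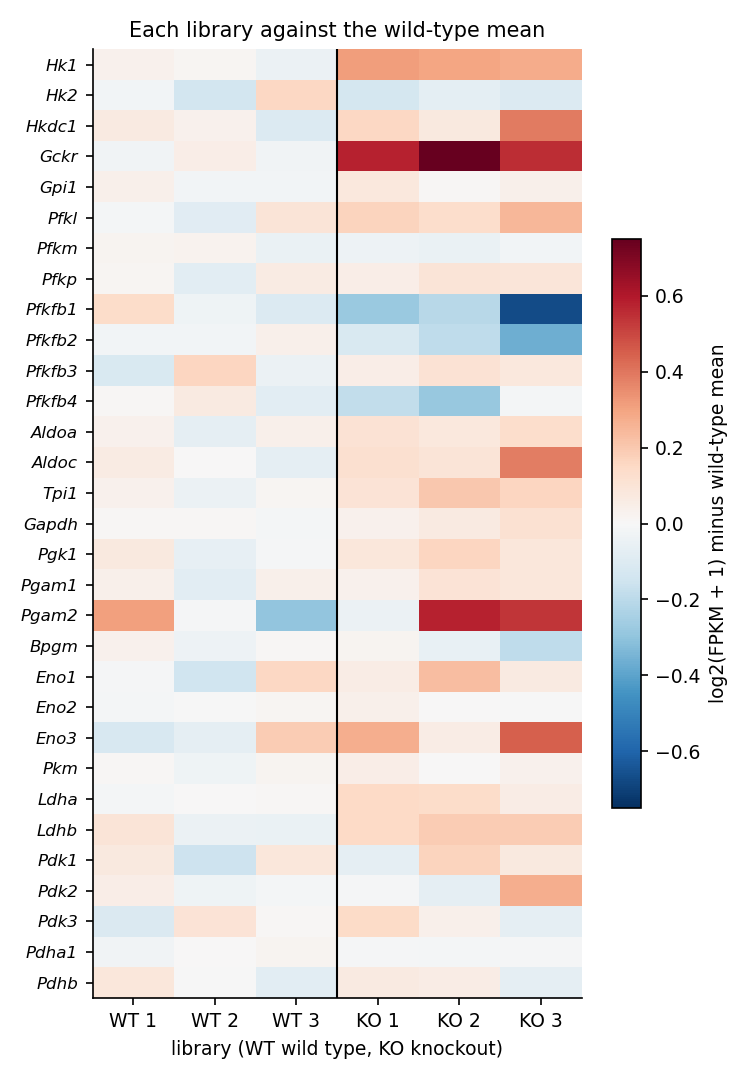
log2(FPKM + 1) of each tested member in each library minus the wild-type mean of that gene (red above, blue below), in pathway order. Knockout columns are redder from Aldoa to Pgk1 and for the lactate dehydrogenases, and Aldoc, Pfkfb2 and Pdk2 are most extreme in knockout replicate 3.

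Gpi1, which turns glucose 6-phosphate into fructose 6-phosphate, measured 274, 263 and 263 in the wild-type and 281, 268 and 273 FPKM in the knockout libraries, with overlap (log2 change 0.04, limma adjusted p = 0.784). Phosphofructokinase 1, the committed step, is built from liver, muscle and platelet type subunits, and all were well expressed. Pfkl, the liver type, measured 89.4, 84.8 and 96.7 in the wild-type and 101, 99.0 and 107 FPKM in the knockout libraries. Its genotypes did not overlap, and the log2 change was 0.18 (SE 0.06, 95% interval 0.05 to 0.32, limma adjusted p = 0.448). Pfkp, the platelet type and the most abundant of them, measured 109, 102 and 112 in the wild-type and 111, 115 and 115 FPKM in the knockout libraries. Pfkm, the muscle type, measured 65.5 ± 2.02 and 63.8 ± 0.601 FPKM (SD, n = 3 each), and both genes had overlapping libraries. The share of Pfkl in their sum was 34.3% ± 1.11 in wild type and 36.6% ± 0.886 in the knockout, and that of Pfkm 24.9% ± 1.59 and 22.8% ± 0.254, neither with overlap. The share of Pfkp overlapped, at 40.8% ± 0.586 and 40.6% ± 0.774.

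The PFKFB enzymes make and break fructose 2,6-bisphosphate, the activator of phosphofructokinase 1. Pfkfb2, the heart type, was the main form in these retinas, with 90.4% to 91.9% of the family's FPKM in wild type and 89.2% to 91.1% in the knockout. It measured 169, 169 and 176 in the wild-type and 158, 150 and 133 FPKM in the knockout libraries 1, 2 and 3. All knockout values lay below all wild-type values, and the lowest was that of replicate 3. The log2 change was −0.22 (SE 0.06, 95% interval −0.37 to −0.07, limma adjusted p = 0.392). It was −0.15 without knockout replicate 3 and −0.13 with the lens term. Pfkfb2 (chromosome 1, 130689182 to 130729253, minus strand) shares 26618 bases with the coding gene model Gm29427 on the same strand, whose level was not analysed here, so the Pfkfb2 value is uncertain. Pfkfb2 also shares 7032 bases with Yod1 on the opposite strand, which measured 9.65 ± 0.730 in the wild-type and 8.13 ± 1.04 FPKM in the knockout libraries (SD, n = 3 each).

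Pfkfb1, the liver type, was near the filter, at 1.49, 1.21 and 1.11 in the wild-type and 0.866, 0.957 and 0.420 FPKM in the knockout libraries. Its genotypes did not overlap, but the interval of the log2 change (−0.39) ran from −0.77 to 0.000284 (limma adjusted p = 0.555), and the change was −0.24 without knockout replicate 3. Pfkfb3, the inducible form with the strongest kinase activity, measured 8.62 ± 0.972 in the wild-type and 9.13 ± 0.211 FPKM in the knockout libraries, and Pfkfb4 6.57 ± 0.384 and 5.78 ± 0.659 FPKM (SD, n = 3 each). Both overlapped between genotypes. The summed FPKM of the family was 185, 187 and 192 in wild type and 173, 165 and 149 in the knockout, and it was the only one of the 15 enzyme steps whose knockout total lay below wild type without overlap.

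Aldolase splits fructose 1,6-bisphosphate. Aldoa, its muscle and general form, measured 1449, 1352 and 1455 in the wild-type and 1531, 1500 and 1554 FPKM in the knockout libraries. The genotypes did not overlap, and the log2 change was 0.11 (95% interval −0.01 to 0.22, limma adjusted p = 0.573). Aldoa has 2 annotated gene models and shares 3084 bases with the coding gene Fam57b on the opposite strand, whose level was not analysed here. Aldoc, the brain form, measured 169, 162 and 154 in the wild-type and 176, 173 and 211 FPKM in the knockout libraries 1, 2 and 3. The genotypes did not overlap and replicate 3 was highest (log2 change 0.20, 95% interval 0.02 to 0.39, limma adjusted p = 0.523). Without that library the log2 change was 0.11, and with the lens term 0.09. Aldoc (chromosome 11, 78322968 to 78327781, plus strand) ends 15700 bases before Unc119 (78343482 to 78349164, plus strand), so an effect of the altered locus on its neighbour and an effect of losing UNC119 cannot be told apart for this gene.

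The next steps handle the 3-carbon sugars. Tpi1, triose phosphate isomerase, measured 448, 425 and 442 in the wild-type and 470, 504 and 489 FPKM in the knockout libraries, without overlap (log2 change 0.15, SE 0.05, 95% interval 0.05 to 0.26, limma adjusted p = 0.399). Gapdh, the dehydrogenase of glyceraldehyde 3-phosphate and a common reference gene, measured 1473, 1475 and 1449 in the wild-type and 1497, 1534 and 1584 FPKM in the knockout libraries. The genotypes lay side by side without overlap, at a mean difference of 4.97% (log2 change 0.07, 95% interval −0.04 to 0.18, limma adjusted p = 0.681). The annotation holds 81 near copies of Gapdh, most of them pseudogenes, so its value is uncertain. The same holds, with 1 to 4 near copies each, for Pgk1, Eno1, Ldha, Gpi1, Tpi1, Pgam1, Pkm, Ldhb and Pdhb. Pgk1, the first kinase to yield ATP, measured 378, 345 and 359 in the wild-type and 382, 403 and 383 FPKM in the knockout libraries, with 1 wild-type library close to the lowest knockout value (log2 change 0.11, limma adjusted p = 0.562). Pgk1 is X-linked, and with a term for Xist RNA the log2 change was again 0.11.

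Pgam1, the main phosphoglycerate mutase, measured 447, 411 and 447 in the wild-type and 445, 467 and 461 FPKM in the knockout libraries, with overlap (log2 change 0.07, 95% interval −0.04 to 0.19). Pgam2, the muscle form, was low and variable, at 2.86 to 4.86 FPKM in wild type and 3.59 to 6.07 FPKM in the knockout. Its log2 change was 0.36 (95% interval −0.13 to 0.84, limma adjusted p = 0.644). The 12 striated muscle markers summed to 7.66 to 11.4 FPKM in wild type and 6.75 to 11.7 FPKM in the knockout, and Myh2 was at 0 in every library. Bpgm, which makes 2,3-bisphosphoglycerate, measured 30.8, 29.3 and 30.3 in the wild-type and 30.7, 29.0 and 26.4 FPKM in the knockout libraries, also with overlap.

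Among enolases, Eno1 is the general, Eno2 the neuronal and Eno3 the muscle form. Eno1 measured 495, 448 and 552 in the wild-type and 517, 584 and 520 FPKM in the knockout libraries, with overlap and a wide spread (log2 change 0.12, 95% interval −0.07 to 0.31, limma adjusted p = 0.694). The log2 change was 0.0457 without wild-type replicate 2 and 0.196 without wild-type replicate 3. A coding copy, Eno1b, matches it at 99.5% identity and was listed at 450, 529 and 403 in the wild-type and 497, 386 and 513 FPKM in the knockout libraries. Within each genotype the library with the most Eno1 had the least Eno1b. Their sum, formed after these values were seen, was 944, 977 and 956 in the wild-type and 1014, 970 and 1034 FPKM in the knockout libraries, with a coefficient of variation of 1.74% in wild type against 10.4% for Eno1 alone. The sum overlapped between genotypes. Eno2 was steady, at 281, 283 and 287 in the wild-type and 291, 284 and 283 FPKM in the knockout libraries (log2 change 0.01, 95% interval −0.07 to 0.10). Eno3 measured 14.8, 15.4 and 18.6 in the wild-type and 19.8, 16.9 and 22.5 FPKM in the knockout libraries, with overlap.

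Pkm, which encodes both the M1 and M2 pyruvate kinases, measured 1111, 1079 and 1120 in the wild-type and 1142, 1106 and 1130 FPKM in the knockout libraries (log2 change 0.03, 95% interval −0.07 to 0.13, limma adjusted p = 0.860). Its libraries overlapped, and the 2 splice forms are not separated in values per gene. Ldha, whose subunit favours lactate production, measured 570, 576 and 579 in the wild-type and 638, 633 and 599 FPKM in the knockout libraries, so every knockout library was higher, with the lens-rich replicate 3 closest to wild type. Its log2 change was 0.12 (SE 0.04, 95% interval 0.02 to 0.21, limma adjusted p = 0.505), and 0.00570 after quantile normalization. Ldhb, whose subunit favours lactate use, measured 136, 123 and 123 in the wild-type and 141, 145 and 145 FPKM in the knockout libraries, without overlap (log2 change 0.18, SE 0.05, 95% interval 0.06 to 0.30, limma adjusted p = 0.389). The share of Ldha in their sum overlapped between genotypes, from 80.7% to 82.5% in wild type and from 80.5% to 81.8% in the knockout.

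**Figure D5:**
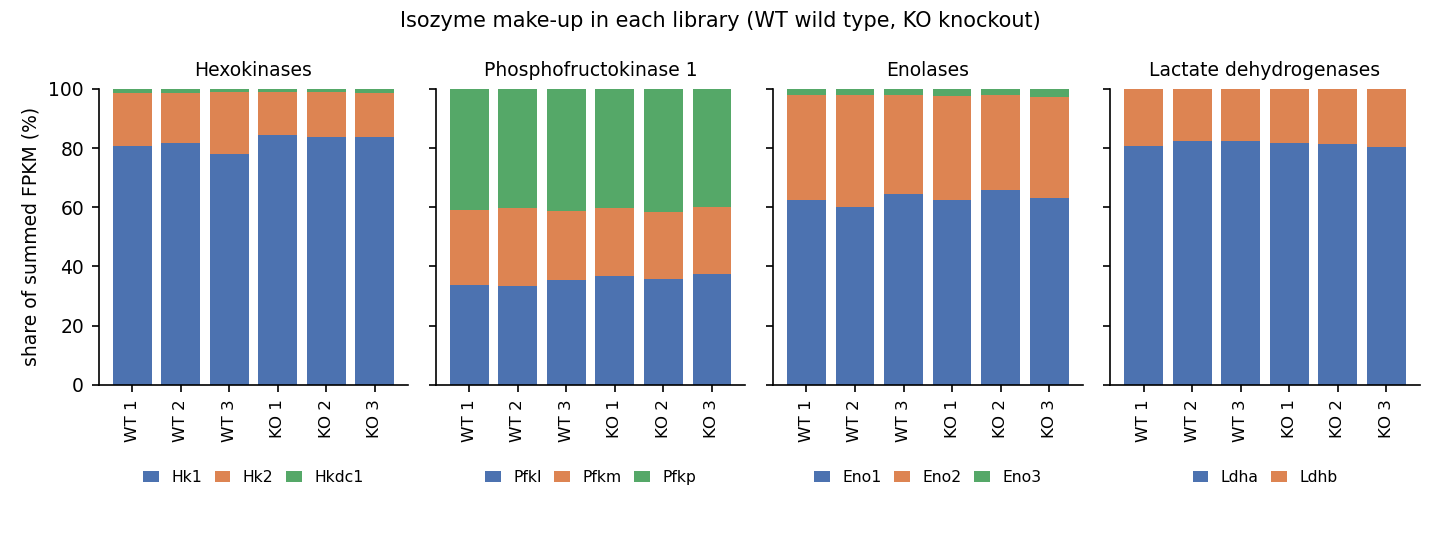
Share (%) of each isozyme gene in the summed FPKM of the members of its enzyme, 1 bar per library, for hexokinases, phosphofructokinase 1, enolases and lactate dehydrogenases. The enolase sum holds Eno1, Eno2 and Eno3 and leaves out the copy Eno1b, so the Eno1 part is uncertain. The Hk1 part is taller in the 3 knockout bars (83.7% to 84.5%) than in wild type (78.1% to 81.7%), while the Ldha part is 80.5% to 82.5% in all 6.

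The 5 tested PDK and E1 genes, which govern entry of pyruvate into mitochondria, overlapped between genotypes. Pdk2 was the most abundant PDK gene, at 29.1, 27.4 and 27.8 in the wild-type and 27.9, 26.7 and 34.1 FPKM in the knockout libraries 1, 2 and 3 (log2 change 0.06, 95% interval −0.14 to 0.27). Its only high value came from replicate 3, and without that library the log2 change was −0.04. Pdk3 measured 13.4 ± 1.03 and 13.8 ± 1.08 FPKM, and Pdk1, a target of hypoxia-inducible factors, 7.30 ± 0.740 and 7.63 ± 0.704 FPKM (SD, n = 3 each). Pdha1, the X-linked alpha subunit of E1, varied little, at 43.8, 44.6 and 45.2 in the wild-type and 44.3, 44.1 and 44.2 FPKM in the knockout libraries (log2 change −0.01, 95% interval −0.11 to 0.09). Pdhb, the beta subunit, measured 75.5, 70.9 and 67.3 in the wild-type and 74.5, 74.1 and 67.8 FPKM in the knockout libraries.

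None of the other genes around the pathway passed the test. They were taken from 7 lists with 76 genes, of which 65 were tested: 4 of 5 glucose transporters, 7 of 7 genes of lactate transport, 9 of 10 of mitochondrial pyruvate entry, 9 of 13 other isozymes, 11 of 12 of glycogen, 7 of 7 of the pentose phosphate pathway and 18 of 22 regulators. At an adjusted p under 0.05, 0 of each list were called in either direction. At an unadjusted p under 0.05 there were 6 of them, 3 with higher and 3 with lower knockout values, which is 9.23% against 9% of all genes, and 33 of 65 (50.8%) had a log2 change above 0, against 49.3% (median 0.00544). The genotypes did not overlap for 9 of 65 (13.8%), 5 higher and 4 lower, against 15.9% of all genes, a share close to that background. Of the glucose transporters, Slc2a1 (GLUT1), the main one of photoreceptors, measured 69.6, 66.4 and 65.2 in the wild-type and 68.2, 66.5 and 93.2 FPKM in the knockout libraries, so that only the lens-rich replicate 3 stood out (log2 change 0.16, and 0.01 without it). Slc2a3 (GLUT3), a neuronal transporter, measured 28.1 ± 0.545 and 25.6 ± 1.68 FPKM, without overlap (log2 change −0.13, limma adjusted p = 0.573). Of the lactate carriers, Slc16a1 (MCT1) measured 61.3 ± 4.49 and 49.8 ± 9.02 FPKM, and its partner Bsg (basigin) 347 ± 20.5 and 389 ± 18.3 FPKM, the latter without overlap (log2 change 0.17, limma adjusted p = 0.497).

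All 9 tested genes for pyruvate entry outside the members (the mitochondrial pyruvate carrier, other parts of pyruvate dehydrogenase, its phosphatases, and pyruvate carboxylase) had log2 changes below 0, but small ones, with a median of −0.05. Of all genes, 49.3% had a log2 change above 0. Most genes of this list were above 0 in some alternative, at a log2 change of at most 0.0381. Pcx, pyruvate carboxylase, was the 1 gene of this list without overlap, at 8.26 ± 0.0627 and 7.94 ± 0.171 FPKM (SD, n = 3 each), and was named after its values were seen. The smallest p among them was that of Pdp2, a phosphatase that activates the enzyme, at 7.76 ± 0.540 and 7.28 ± 0.583 FPKM (SD, n = 3 each). Pdpr, a regulator of such phosphatases, measured 11.7 ± 0.478 and 11.2 ± 0.392 FPKM. In the pentose phosphate pathway, which draws on glucose 6-phosphate, Pgd measured 27.8 ± 0.971 and 31.3 ± 1.77 FPKM, without overlap (log2 change 0.17, limma adjusted p = 0.499), and Taldo1 72.4 ± 1.26 and 75.7 ± 2.18 FPKM. Among other isozymes, Adpgk, which phosphorylates glucose with ADP, measured 10.8 ± 1.10 and 8.96 ± 0.920 FPKM, and Pgp, a phosphatase that clears side products of glycolysis, 17.4 ± 2.76 and 21.1 ± 2.85 FPKM. Of the glycogen genes, Pgm2l1, which makes glucose 1,6-bisphosphate, measured 27.6 ± 0.944 and 24.8 ± 0.939 FPKM, without overlap (log2 change −0.15, limma adjusted p = 0.507).

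The list of hypoxia-inducible factor genes and other regulators had 18 of 22 genes tested, 10 with values above and 8 below 0, at a median of 0.00927. Hif1a measured 197, 179 and 181 in the wild-type and 193, 179 and 186 FPKM in the knockout libraries (log2 change 0.01, 95% interval −0.11 to 0.13, limma adjusted p = 0.982). P4ha1, a collagen prolyl hydroxylase among the known targets, measured 16.2 ± 0.615 and 18.8 ± 1.53 FPKM, and Esrra, a nuclear receptor that acts on metabolic genes, 12.5 ± 0.162 and 13.8 ± 0.824 FPKM (SD, n = 3 each). Neither overlapped between genotypes and neither passed (limma adjusted p = 0.499 and 0.586). The other tested gene of this list without overlap was Bnip3l, which was lower in the knockout. It measured 54.1 ± 0.607 and 51.7 ± 2.70 FPKM (SD, n = 3 each, limma adjusted p = 0.713). The mRNA level of Hif1a does not measure its protein, which oxygen controls.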

How the data were processed

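RNA-seq of whole mouse retina was available for 3 Unc119+/+ and 3 Unc119-/- libraries. Per the labels' protocols, total RNA came from a TRIzol extraction and was turned into stranded mRNA libraries. The submitters' processing notes name TopHat2 (2.1.1), Cuffdiff (2.2.1) and mm10. The sources used here do not give the annotation, the strand setting or the scaling. FPKM per gene were deposited by the authors, per the file headers, with 1 table per library. FPKM are not counts, so fragments per gene are unknown; relative depth, read from the commonest ratio between libraries among values at or below 0.3 FPKM (shared by 27.8% to 30.6% of such genes), was 0.763 to 1 in wild type and 0.931 to 0.964 in the knockout, with wild-type replicate 2 as 1.

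Genes with a mean of at least 0.5 FPKM were tested with limma (version 3.58.1, R 4.3.3) after a log2(FPKM + 1) transform, with a trend of the variance on the mean. Tests were two-sided, p-values were adjusted over all 14176 genes by Benjamini-Hochberg, and the threshold was 0.05. Changes are on that scale, which understates low genes. The fit was tested on simulated data. Replicate numbers were not used as a block. Alternatives were a pseudocount of 0.1, no filter, a minimum of 5 FPKM, quantile normalization, a replicate block, terms for Xist and for lens RNA, and leaving out each library. Near copies were other genes in GENCODE M21 (mm10) with at least 95% identity over at least 50% of the shorter transcript (10 members have one), and 9 members overlap another coding gene. All 35 symbols matched RefSeq promoters. Values are mean ± SD, n = 3.

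Members and lists were chosen with earlier results of these data known. Each library's value is given for members called, members without overlap and the most abundant member of each step, and ranges for those under the filter; of each further list, members called or otherwise the 2 with the smallest p are named. 1 gene that this rule names is not reported here. Hif1a, Bnip3l, Eno1b, Hk1os and Yod1 were named after their values were seen.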

Additional observations from a re-analysis of the deposited data

How the results depend on the processing

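The number of members called was 2 in the main setting. It was also 2 with pseudocount 0.1 and with a minimum of 5 FPKM, 1 with no filter, with quantile normalization, with the replicate block and with the Xist term, 0 with the lens term, and 0 to 1 without any single library. The labels do not state that equal numbers pair the libraries. Deviations of equally numbered libraries from the genotype means correlated at 0.072, −0.0902 and −0.119, and not every library correlated best with its own number. Such deviations cancel within a genotype, so these correlations cannot decide whether equally numbered libraries shared a litter or batch. The replicate block left Gckr called (adjusted p = 0.0354) and not Hk1 (adjusted p = 0.154), and lowered the calls over all genes from 33 to 15; these were 19 with the Xist term, 7 with the lens term and 12 to 18 without single libraries. Hk1 was also not called with no filter (adjusted p = 0.0842), quantile normalization (0.0887), the Xist term (0.0859) or the lens term (0.261). Fits with more terms or fewer libraries have fewer residual degrees of freedom. The median change of the members was 0.07, and 0.0387 with quantile normalization; it ran from 0.0476 to 0.0955 without single libraries. Members with a change above 0 numbered 21 to 24 of 31 wherever 31 were tested, and 21 without knockout replicate 1. No other pathway gene was called in any setting. Unc119 kept its call in all 13 alternatives. Of 582 pairs of a named gene and an alternative, 567 kept their direction, and the 9 genes that did not were all uncalled in the main setting. With quantile normalization Eno2 was at −0.0258, Pkm at −0.0224 and Pdha1 at 0.00219. With the lens term Bpgm was at 0.00232, Pdk2 at −0.0331 and Slc2a1 at −0.00172. Without single libraries the ranges were −0.000482 to 0.0217 for Eno2, −0.0184 to 0.12 for Pdk1, −0.0398 to 0.13 for Pdk2, −0.0143 to 0.0919 for Pdk3, −0.0226 to 0.000186 for Pdha1 and −0.0217 to 0.0611 for Pdhb. The cause of these shifts was not tested. The depth is unknown, so the precision of low members such as Pfkfb1, Pgam2 and Hkdc1 rests on 3 libraries per genotype.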
